A study of Mus musculus with 8 samples.

Results

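FGF10 and the genes around it were examined in single pancreas buds of mouse embryos at E11.0: the ligand gene *Fgf10*, the 4 receptor genes *Fgfr1*, *Fgfr2*, *Fgfr3* and *Fgfr4*, and 5 genes that respond to ERK signaling, *Spry1*, *Spry2*, *Spry4*, *Etv5* and *Dusp6*. These 10 genes were taken by name from a table of 24341 genes, and all 10 were present. Total RNA was sequenced from 5 wild-type (WT) buds and from 3 buds of genotype Pdx1Creearly;Lats1f/f;Lats2f/f, called Lats1/2PanKO here, each bud giving a library of its own. All 8 libraries carry the strain label CD1. In the Lats1/2PanKO buds, Cre recombinase driven by the *Pdx1* promoter removes both LATS kinase genes from pancreatic epithelial cells, while mesenchyme and vessels keep them. Mesenchyme had been pulled away with forceps, and no other sorting of cells was done. The question put to the data was whether the level of these FGF pathway genes differed between the genotypes.

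In the early pancreas, FGF10 is made by the mesenchyme and acts on the epithelium, mainly through the IIIb splice form of FGFR2, where it keeps progenitors dividing and undifferentiated. An FGF receptor bound by ligand and heparan sulfate signals through the adaptor FRS2 and the RAS-ERK cascade. ERK activity in turn switches on genes that dampen the same signal, among them the Sprouty proteins and the ERK phosphatase DUSP6, and the transcription factors ETV4 and ETV5, so that the level of these transcripts is commonly read as a measure of FGF-ERK activity.

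The values are FPKM, fragment counts scaled by transcript length and by library size, as the authors computed them from alignments to the mouse assembly GRCm38 (mm10). Low values of single-exon genes lie on steps, from which 1 fragment was estimated to be worth 0.0985 to 0.1058 FPKM in a transcript of 1000 bases in 7 libraries and 0.1328 FPKM in WT replicate 5, the shallowest. Genotypes were compared with limma on log2(FPKM + 1) over the 13777 genes that averaged 0.5 FPKM or more, a filter that all 10 genes passed. On this scale the fold change of a low gene comes out too small, which here concerns *Fgfr3* and *Fgfr4* above all. *Lats1* lay at 14.1 to 16.6 FPKM in WT and at 10.1 to 13.8 FPKM in Lats1/2PanKO buds, without overlap, whereas *Lats2* overlapped (11.6 to 14.7 and 11.1 to 13.4 FPKM). The marker sums of 2 cell layers were compared, and those of the epithelium did not overlap between genotypes while those of the mesenchyme did. The summed FPKM of 20 epithelial markers ran from 258 to 329 in WT and from 512 to 1244 in Lats1/2PanKO buds, and that of 24 mesenchymal markers from 791 to 1017 and from 380 to 819. By their mean log2(FPKM + 1), the same 24 mesenchymal markers did not overlap. That mean ran from 3.45 to 3.63 in WT and from 2.89 to 3.39 in Lats1/2PanKO buds. Lats1/2PanKO replicate 3 had both the highest epithelial and the lowest mesenchymal sum, and values without it are given for each of the 10 genes whose log2 fold change then moved by over 1.5 times or turned in sign. In bulk RNA such as this, fewer cells of a type and less RNA per cell cannot be told apart.

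**Figure D1:**
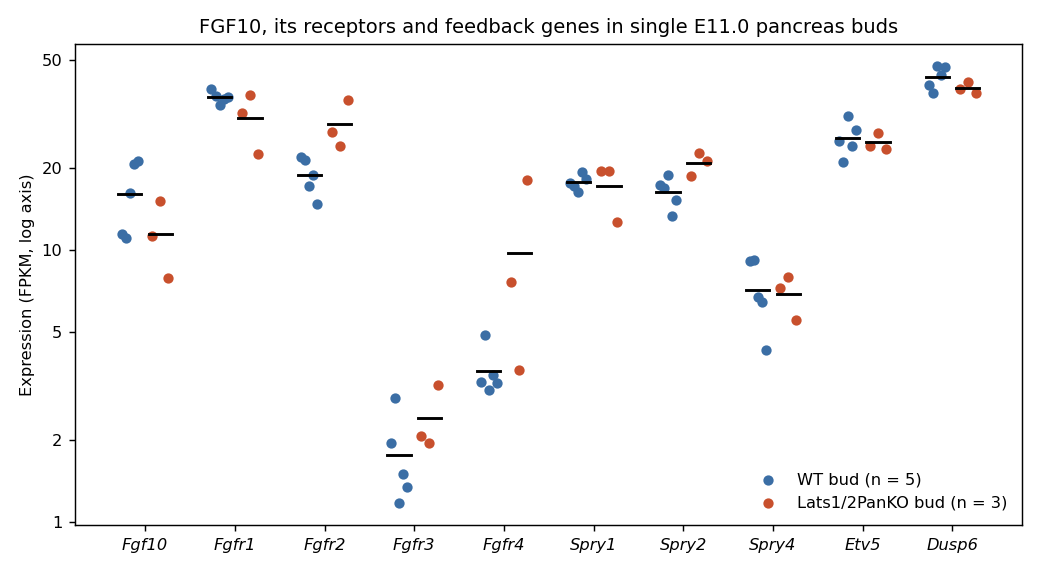
Expression of the 10 genes in each bud, in FPKM on a log axis, with WT buds (n = 5) in blue, Lats1/2PanKO buds (n = 3) in red and a black bar at each group mean. *Fgfr2* is the gene whose 3 Lats1/2PanKO values (24.1 to 35.4 FPKM) all lie above the WT values (14.7 to 21.9 FPKM), while *Etv5* and *Dusp6* lie at similar heights in both genotypes.

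Of the 10 genes, a pair of receptors and 1 of the 3 Sprouty genes stood out. *Fgfr2*, *Fgfr4* and *Spry2* had higher means in Lats1/2PanKO buds at an unadjusted p under 0.05, and 0 of the 10 genes were lower at that level. Over all genes tested, 11.3% had an unadjusted p under 0.05, 6.29% higher and 4.99% lower in Lats1/2PanKO buds. No member had an adjusted p under 0.05, against 0.0145% of all genes tested (2 of 13777). The median log2 fold change of the 10 genes was -0.03, and 0.12 without Lats1/2PanKO replicate 3. The 3 promoters below are those of the genes with an unadjusted p under 0.05, shown so that the sequence upstream of these genes can be read. Each runs 5′ to 3′ on the strand of its gene, from 250 bases before to 50 bases after the RefSeq start (GRCm38.p6). They were searched on both strands for GGAATG, the core of the motif bound by TEAD factors, the DNA-binding partners of YAP1 and TAZ, and for CCGGAAG, a core of ETS factors such as ETV5. Capitals mark a match.
Fgfr2 (chr7:130266759-130267058, minus strand): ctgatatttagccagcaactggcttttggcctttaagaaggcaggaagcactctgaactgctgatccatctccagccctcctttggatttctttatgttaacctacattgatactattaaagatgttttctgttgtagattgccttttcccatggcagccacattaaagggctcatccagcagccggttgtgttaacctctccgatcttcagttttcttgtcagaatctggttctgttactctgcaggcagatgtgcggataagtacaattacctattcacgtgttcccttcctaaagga
Fgfr4 (chr13:55152568-55152867, plus strand): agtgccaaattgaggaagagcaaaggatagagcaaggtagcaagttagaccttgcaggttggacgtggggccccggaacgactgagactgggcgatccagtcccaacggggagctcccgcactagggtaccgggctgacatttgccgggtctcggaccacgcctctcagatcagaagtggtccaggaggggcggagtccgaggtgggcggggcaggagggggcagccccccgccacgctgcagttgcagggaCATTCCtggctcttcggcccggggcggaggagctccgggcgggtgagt
Spry2 (chr14:105896770-105897069, minus strand): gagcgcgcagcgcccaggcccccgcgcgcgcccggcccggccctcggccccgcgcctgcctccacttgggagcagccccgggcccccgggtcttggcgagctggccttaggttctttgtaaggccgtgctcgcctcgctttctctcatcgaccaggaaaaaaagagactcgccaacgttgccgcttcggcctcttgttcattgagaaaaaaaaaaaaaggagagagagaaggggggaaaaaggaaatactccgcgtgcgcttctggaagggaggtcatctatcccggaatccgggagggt

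The *Fgfr4* window held 1 match to the TEAD core, on the minus strand and beginning 2 bases after the start, and the windows of *Fgfr2* and *Spry2* held none. The ETS core was in none of the 3. Of 32851 mouse promoters of this length, 14.7% held the TEAD core and 8.86% the ETS core. Among the 10 windows found for 8 of the genes, the other match was a TEAD core in that of *Spry1*, at position -208 from its start. The window of *Fgfr2* was also the poorest in G and C of these, at 43.7%, against 62.7% for *Spry2* and 65.3% for *Fgfr4* and a median of 52.7% over all promoters.

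*Fgf10*, the ligand gene, lies on chromosome 13 of GRCm38 from 118714699 to 118792573. It was read at 11.5, 11.03, 16.2, 20.6 and 21.2 FPKM in WT replicates 1 to 5 and at 11.3, 15.1 and 7.90 FPKM in the Lats1/2PanKO buds. WT replicates 4 and 5 were the highest and Lats1/2PanKO replicate 3 the lowest, and the groups overlapped because WT replicates 1 and 2 lay within the Lats1/2PanKO range. The means were 16.1 ± 4.82 FPKM (SD, n = 5) and 11.4 ± 3.61 FPKM (SD, n = 3). The log2 fold change was -0.45, with a 95% interval of -1.04 to 0.13 (limma, adjusted p = 0.565; exact permutation test, two-sided, p = 0.214), so that a fall by 1.04 on the log2 scale and no change were both within the interval. Without Lats1/2PanKO replicate 3 it was -0.23.

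Mesenchymal markers are given beside the ligand. Of 20 tested, 19 had a lower mean in Lats1/2PanKO buds, 5 of them with an unadjusted p under 0.05, and the list's median on the log2 scale was -0.46 against -0.01 over all genes. The median was -0.19, and 2 markers had an unadjusted p under 0.05, without Lats1/2PanKO replicate 3. The share over all genes was then 5.89%, against 11.3% with every bud. *Pdgfra*, the PDGF receptor of embryonic mesenchyme, was at 35.5 to 87.8 FPKM in WT and 19.9 to 35.0 FPKM in Lats1/2PanKO buds. *Col1a1*, a collagen chain of fibroblasts, was at 37.2 to 60.1 and 23.1 to 46.5 FPKM. *Prrx1*, a factor of limb and head mesenchyme, was the 1 marker with a higher mean, at 0.221 to 0.775 FPKM in WT and 0.572 to 2.195 FPKM in Lats1/2PanKO buds. *Barx1*, which specifies stomach mesenchyme, had the highest mean of the 24, with 173 to 500.1 FPKM in WT and 115 to 302 FPKM in Lats1/2PanKO buds, and none of the 24 was listed at 0 in every library. When *Fgf10* was set against the mean log2(FPKM + 1) of these 24 genes in the same bud, the log2 difference ran from -0.04 to 0.98 in WT and from 0.26 to 0.62 in Lats1/2PanKO buds, the latter range falling within the former. The part of the mesenchymal markers in the value of *Fgf10* was not tested.

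**Figure D2:**
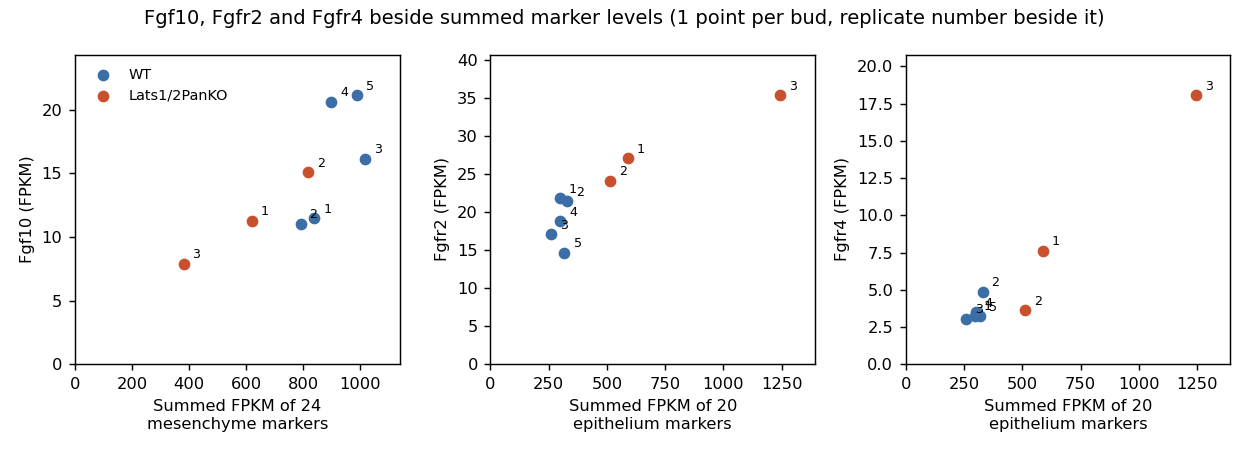
FPKM of *Fgf10*, *Fgfr2* and *Fgfr4* on the vertical axes against the summed FPKM of 24 mesenchymal or 20 epithelial markers on the horizontal axes, 1 point per bud with its replicate number, WT in blue and Lats1/2PanKO in red. Lats1/2PanKO replicate 3 has the lowest mesenchymal sum (380) and the highest epithelial sum (1244), with the lowest *Fgf10* and the highest *Fgfr2* and *Fgfr4* values.

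*Fgfr1*, on chromosome 8 from 25518759 to 25575718, encodes the receptor common in mesenchyme and was the most abundant receptor transcript in WT buds. Its FPKM was 39.1, 36.9, 34.0, 35.8 and 36.3 in the WT buds and 31.9, 37.0 and 22.4 in the Lats1/2PanKO buds. The WT values lay close together, and of the Lats1/2PanKO buds replicate 2 fell among them while replicates 1 and 3 lay below. The log2 fold change was -0.28 (standard error 0.14, limma, adjusted p = 0.502; exact permutation test, two-sided, p = 0.0893). It was -0.08 without Lats1/2PanKO replicate 3. Relative to the mean of the mesenchymal markers in the same bud, *Fgfr1* was higher by 1.61 to 1.75 on the log2 scale in WT and by 1.66 to 1.86 in Lats1/2PanKO buds.

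*Fgfr2*, on chromosome 7 from 130162451 to 130266808, encodes the receptor for FGF10 in epithelium. It was at 21.9, 21.4, 17.1, 18.8 and 14.7 FPKM in WT replicates 1 to 5 and at 27.1, 24.1 and 35.4 FPKM in the Lats1/2PanKO buds. Of the latter, the lowest value was above the highest WT value, and groups were apart like this in either direction for 7.51% of all genes tested and for no other member. The means, 18.8 ± 3.01 FPKM (SD, n = 5) and 28.9 ± 5.86 FPKM (SD, n = 3), gave a ratio of 1.54. The log2 fold change was 0.59 (95% interval 0.25 to 0.94; limma, unadjusted p = 0.00379, adjusted p = 0.230; exact permutation test, two-sided, p = 0.0179, the smallest that 8 buds allow). It was 0.44 without Lats1/2PanKO replicate 3 (limma, adjusted p = 0.692). These gene-level values do not separate the IIIb form of epithelium from the IIIc form of mesenchyme. *Esrp1* and *Esrp2*, the splicing factors that favour the IIIb form, were at 3.93 to 6.81 and 2.098 to 3.09 FPKM in WT, and at 7.94 to 22.1 and 3.69 to 11.2 FPKM in Lats1/2PanKO buds. Both belong to the list of epithelial markers, which is described below.

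*Fgfr4*, on chromosome 13 from 55152818 to 55168759, encodes a receptor of endoderm and liver that also binds FGF19-type hormones together with β-Klotho. It was at 3.26, 4.87, 3.06, 3.49 and 3.24 FPKM in the WT buds and at 7.63, 3.64 and 18.1 FPKM in the Lats1/2PanKO buds. Lats1/2PanKO replicate 3 was the highest and replicate 1 next, while replicate 2 lay below WT replicate 2, so the groups overlapped by this 1 bud. The ratio of means was 2.73, and 1.57 without Lats1/2PanKO replicate 3. The log2 fold change was 1.01 (95% interval 0.16 to 1.86; limma, unadjusted p = 0.0246, adjusted p = 0.365; exact permutation test, two-sided, p = 0.0357). Without Lats1/2PanKO replicate 3 it was 0.48 and the unadjusted p 0.0912 (adjusted p = 0.941, limma). *Klb*, which encodes β-Klotho and was among the 3 modulators with the smallest p, was at 0.652 to 1.41 FPKM in WT and at 2.09, 1.78 and 5.77 FPKM in Lats1/2PanKO buds, without overlap. Replicate 3 was again the highest.

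*Fgfr3*, on chromosome 5 from 33721724 to 33737068, was the lowest of the 10 genes, with 1.18 to 2.87 FPKM in WT and 1.96 to 3.20 FPKM in Lats1/2PanKO buds. The values overlapped and the log2 fold change was 0.31 (standard error 0.21, limma, adjusted p = 0.638; exact permutation test, two-sided, p = 0.214), or 0.15 without Lats1/2PanKO replicate 3.

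**Figure D3:**
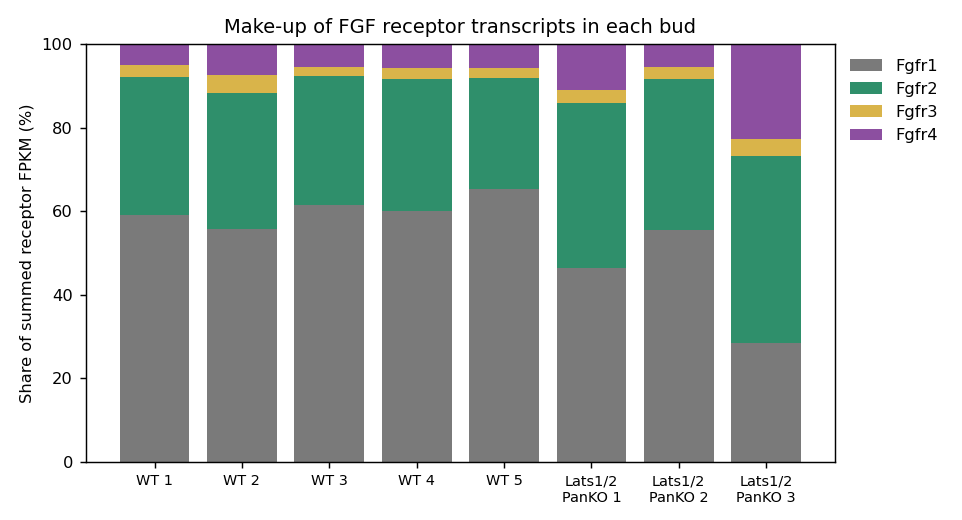
Share of each receptor gene in the summed FPKM of the 4 receptor genes, in percent, for each of the 8 buds. *Fgfr1* makes up 55.8 to 65.3% in the 5 WT bars and 28.3 to 55.4% in the 3 Lats1/2PanKO bars, where *Fgfr2* makes up 36.2 to 44.8%.

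The make-up of the receptor transcripts differed accordingly. *Fgfr1* supplied 55.8 to 65.3% of the summed receptor FPKM in WT buds, and 46.4, 55.4 and 28.3% in the Lats1/2PanKO buds. *Fgfr2* supplied 26.4 to 33.1% in WT and 36.2 to 44.8% in Lats1/2PanKO buds, and neither share overlapped between genotypes. The share of *Fgfr4* was 4.93 to 7.37% in WT and 11.1, 5.45 and 22.8% in Lats1/2PanKO buds. The sum itself ran from 55.4 to 66.2 FPKM in WT and from 66.7 to 79.2 FPKM in Lats1/2PanKO buds. *Fgfr2* was 0.404 to 0.582 times as abundant as *Fgfr1* in WT buds and 0.851, 0.653 and 1.58 times in the Lats1/2PanKO buds, so that replicate 3 was the bud in which *Fgfr2* outnumbered *Fgfr1*. The ratio of *Fgf10* to *Fgfr2* ran from 0.514 to 1.44 in WT and from 0.223 to 0.626 in Lats1/2PanKO buds, with overlap. These ratios were not tested, since they combine members.

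*Fgfr2* lay above its WT range in every Lats1/2PanKO bud, and *Fgfr4* in all but replicate 2. Epithelial markers, by their summed FPKM, were above the WT range in every Lats1/2PanKO bud. All 20 tested had a higher mean in Lats1/2PanKO buds, 19 of them with an unadjusted p under 0.05, and the list's median on the log2 scale was 1.09. These were 18 genes and a median of 0.71 without Lats1/2PanKO replicate 3. The share of all genes tested at that threshold was 11.3% with every bud and 5.89% without replicate 3. *Cdh1*, the adhesion protein E-cadherin, was at 21.1 to 31.2 FPKM in WT and 35.4 to 94.9 FPKM in Lats1/2PanKO buds, and *Epcam*, another epithelial adhesion protein, at 31.4 to 46.9 and 55.97 to 137 FPKM. Markers of pancreatic progenitors were less uniform. *Pdx1*, the factor whose promoter drives the Cre, was at 9.96 to 21.8 FPKM in WT and 15.3 to 48.5 FPKM in Lats1/2PanKO buds, while *Ptf1a*, a factor of multipotent and acinar progenitors, was at 1.37 to 3.02 and 1.61 to 2.61 FPKM. Set against the mean log2(FPKM + 1) of the 20 epithelial markers in the same bud, *Fgfr2* was higher by 0.83 to 1.26 on the log2 scale in WT and by 0.62, 0.73 and 0.03 in the Lats1/2PanKO buds, so relative to these markers it was lower in every Lats1/2PanKO bud. The same difference for *Fgfr4* ran from -1.17 to -0.84 in WT and from -1.71 to -0.90 in Lats1/2PanKO buds, with overlap, and that for *Fgfr3* from -1.97 to -1.44 and from -3.08 to -2.36, without overlap. These differences hold for this list of markers only. The mean log2(FPKM + 1) of the 15 progenitor markers averaged 3.29 in WT and 3.91 in Lats1/2PanKO buds. That of *Fgfr2* was 4.29 and 4.88. The receptors were not set against progenitor markers bud by bud. Liver markers, which include genes expressed beside *Fgfr4* in hepatoblasts, were also highest in Lats1/2PanKO replicate 3, with a summed FPKM of 480 against 117 to 203 in WT and 168 to 211 in the other Lats1/2PanKO buds. Most of that sum in replicate 3 was *Ttr* (318 FPKM) and *Afp* (89.5 FPKM), and the paper lists *Afp* as a known TEAD target. The part of these markers in the receptor values was not tested.

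**Figure D4:**
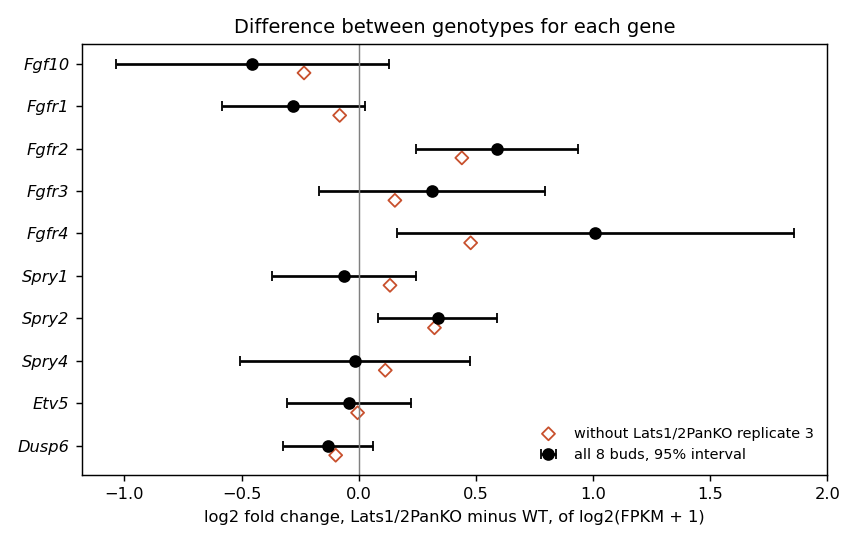
Log2 fold change of each gene between genotypes, on the log2(FPKM + 1) scale, with its 95% interval from limma over all 8 buds (black) and the value without Lats1/2PanKO replicate 3 (red diamond). The intervals of *Fgfr2*, *Fgfr4* and *Spry2* lie above 0, and the diamond of *Fgfr4* (0.48) lies farthest from its point (1.01).

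The feedback genes were detected in every bud of both genotypes. The Sprouty proteins restrain RAS-ERK signaling downstream of the receptor. *Spry1*, on chromosome 3 from 37639947 to 37644599, was at 16.3 to 19.3 FPKM in WT buds and at 19.5, 19.6 and 12.6 FPKM in the Lats1/2PanKO buds. Replicates 1 and 2 lay just above the WT range and replicate 3 below it, which left a log2 fold change of -0.06 (95% interval -0.37 to 0.24; limma, adjusted p = 0.904). With replicate 3 left out the sign turned, to 0.13. *Spry2*, on chromosome 14 from 105891947 to 105896819, was at 17.3, 16.8, 18.8, 13.4 and 15.3 FPKM in WT replicates 1 to 5 and at 18.6, 22.6 and 21.2 FPKM in the Lats1/2PanKO buds. Overlap was limited to 1 pair of buds, WT replicate 3 and Lats1/2PanKO replicate 1. The ratio of means was 1.28 and the log2 fold change 0.34 (95% interval 0.08 to 0.59; limma, unadjusted p = 0.0146, adjusted p = 0.322; exact permutation test, two-sided, p = 0.0714). Unlike *Fgfr4*, it was much the same without Lats1/2PanKO replicate 3, at 0.32. *Spry4*, on chromosome 18 from 38586265 to 38601268, varied most among WT buds of the 3, from 4.31 to 9.16 FPKM, and was at 5.56 to 7.94 FPKM in Lats1/2PanKO buds (log2 fold change -0.02, 95% interval -0.51 to 0.47; limma, adjusted p = 0.985), and its sign turned too, to 0.11, without Lats1/2PanKO replicate 3. The summed FPKM of the 3 Sprouty genes was 37.8 to 43.97 in WT and 39.4 to 50.1 in Lats1/2PanKO buds.

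*Etv5*, on chromosome 16 from 22381313 to 22439570, was at 25.1, 21.0, 31.2, 24.1 and 27.6 FPKM in WT buds and at 24.1, 26.9 and 23.5 FPKM in Lats1/2PanKO buds. The 3 values of the latter lay inside the WT range, and the log2 fold change was -0.04 (95% interval -0.31 to 0.22; limma, adjusted p = 0.923), or -0.0050 without Lats1/2PanKO replicate 3. *Dusp6*, on chromosome 10 from 99263231 to 99267489, was at 40.4, 37.8, 47.4, 43.8 and 47.2 FPKM in WT buds and at 39.1, 41.4 and 37.6 FPKM in Lats1/2PanKO buds. Its log2 fold change was -0.13 (95% interval -0.32 to 0.06; limma, adjusted p = 0.617; exact permutation test, two-sided, p = 0.179). The intervals of *Etv5* and *Dusp6* leave out a change of 1 in either direction on the log2(FPKM + 1) scale, as do those of every member but *Fgf10* and *Fgfr4*. For *Fgfr3*, at a mean of 1.77 FPKM in WT, a 2-fold change in FPKM is well under 1 on this scale. Its interval, -0.17 to 0.79, therefore does not leave out a 2-fold rise in FPKM. All these intervals concern RNA of the whole bud. The feedback genes were not set against epithelial markers, whose mean log2(FPKM + 1) averaged 3.23 in WT and 4.42 in Lats1/2PanKO buds. The part of these markers in the feedback values was not tested. *Etv5* and *Dusp6* were both highest in WT replicates 3 and 5. The ratio of *Etv5* to *Dusp6* ran from 0.550 to 0.657 in WT and from 0.616 to 0.651 in Lats1/2PanKO buds.

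By level in WT buds the order was *Dusp6*, *Fgfr1*, *Etv5*, *Fgfr2*, *Spry1*, *Spry2*, *Fgf10*, *Spry4*, *Fgfr4* and *Fgfr3*, from a mean of 43.3 to 1.77 FPKM. Of the 9 pairs of neighbours, those whose WT ranges did not overlap were *Fgfr1* and *Etv5*, *Fgf10* and *Spry4*, and *Fgfr4* and *Fgfr3*. In Lats1/2PanKO buds *Fgfr2* (mean 28.9 FPKM) stood above *Etv5* (24.8 FPKM), with overlapping ranges, *Spry2* (20.8 FPKM) above *Spry1* (17.2 FPKM) and *Fgfr4* (9.78 FPKM) above *Spry4* (6.91 FPKM), also with overlap.

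The genes most alike over the 8 buds were found by Pearson's r of log2(FPKM + 1) among 11466 others that averaged 2 FPKM or more, and are given as a description only. For *Fgfr2* these were *Mapk13* (r = 0.990), *Rassf5*, *Syt13*, *St14* and *Atp1b1*, of which *St14*, the epithelial protease matriptase, is on the list of epithelial markers. For *Fgfr4* they were *Myo5b* (r = 0.990), *Stard13*, *F11r*, *Cuedc1* and *Fgd4*. *Myo5b* is a motor of apical recycling and *F11r* a tight junction protein. For *Fgf10* they were *Rpl15* (r = 0.992), *Smc4*, *Rps6ka6*, *Ezh2* and *Mbtd1*, none of them on the list of mesenchymal markers. *Etv5* had lower values, the highest being that of *Spsb4* (r = 0.943), followed by *Sod1*, *Vps26a*, *3110082I17Rik* and *Chd4*. With 8 points and this many candidates, high values of r arise easily.

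Other FGF ligands were few at this stage. Of 21 genes, 5 reached a mean of 0.5 FPKM, which were *Fgf9*, *Fgf11*, *Fgf13*, *Fgf14* and *Fgf1*. *Fgf9*, an epithelial and mesothelial ligand that acts on mesenchyme, was as abundant as *Fgf10*, with 14.8, 9.81, 17.97, 15.97 and 19.9 FPKM in WT and 11.03, 12.6 and 4.28 FPKM in Lats1/2PanKO buds. It was the 1 of the 5 with an unadjusted p under 0.05 (log2 fold change -0.77, standard error 0.32, limma, adjusted p = 0.402), and its groups overlapped because WT replicate 2 was low. None of the 5 ligands (0) had an unadjusted p under 0.05 without Lats1/2PanKO replicate 3. Markers of mesothelium, 1 of its sources, summed to 59.0 to 81.8 FPKM in WT and 43.7 to 49.5 FPKM in Lats1/2PanKO buds. The highest of them by mean were *Podxl* (36.4 FPKM in WT and 32.8 FPKM in Lats1/2PanKO buds) and *Aldh1a2* (19.3 and 5.25 FPKM). *Wt1*, *Upk3b* and *Gpm6a* overlapped between genotypes. The part of these markers in the value of *Fgf9* was not tested. *Fgf13*, of the intracellular FGF subfamily that binds sodium channels, was at 1.97 to 3.20 FPKM in WT and 3.27 to 3.33 FPKM in Lats1/2PanKO buds. *Fgf11* and *Fgf14*, of the same subfamily, lay at 1.68 to 3.27 and 0.691 to 3.32 FPKM in WT and overlapped between genotypes, as did *Fgf1*, at 0.212 to 1.57 FPKM. *Fgf7*, the other main ligand of the IIIb receptor, was named after its values were seen. It was at most 0.266 FPKM in WT and 0.443 FPKM in Lats1/2PanKO buds, far under *Fgf10*.

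**Figure D5:**
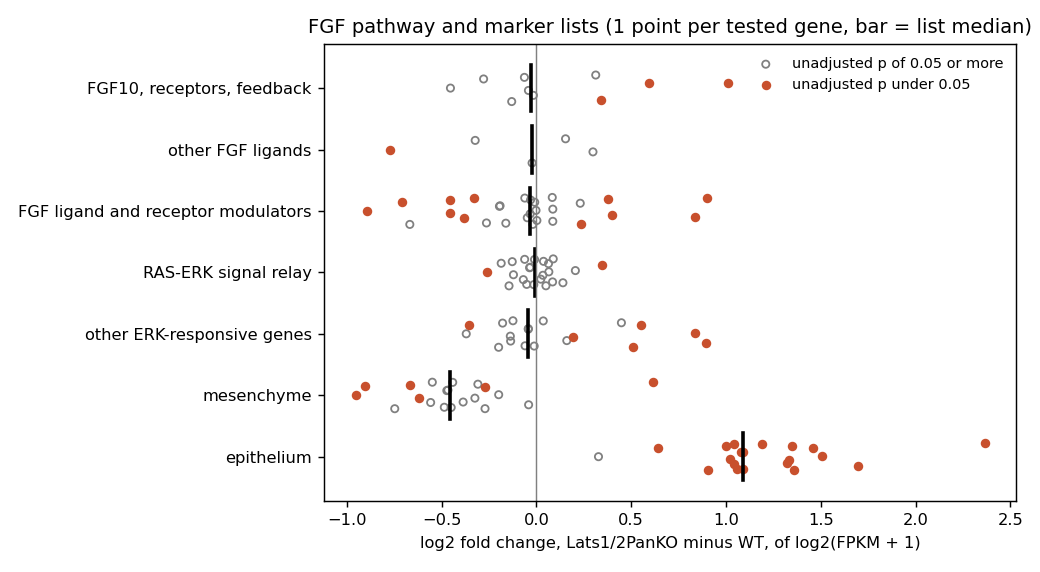
Log2 fold change of every tested gene of the FGF lists and of the mesenchymal and epithelial marker lists, 1 point per gene, filled where the unadjusted limma p was under 0.05, with a bar at each list's median. The medians of the 5 FGF lists lie between -0.04 and -0.01, that of the mesenchymal markers at -0.46 and that of the epithelial markers at 1.09.

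Genes that modulate ligand and receptor went in both directions. Of 28 tested, 11 had an unadjusted p under 0.05, with higher means in Lats1/2PanKO buds for 5 and lower means for 6, and the median was -0.03. Heparan sulfate, the co-receptor that FGF10 needs, is sulfated at the 6-O position by enzymes of which *Hs6st1* and *Hs6st2* lay on opposite sides. *Hs6st1* was at 9.05 to 13.1 FPKM in WT and at 18.7, 17.5 and 30.4 FPKM in Lats1/2PanKO buds (log2 fold change 0.84, standard error 0.18, limma, adjusted p = 0.154). *Hs6st2* was at 7.87 to 10.1 FPKM in WT and at 7.16, 7.59 and 4.88 FPKM in Lats1/2PanKO buds (log2 fold change -0.45, standard error 0.14, limma, adjusted p = 0.297). Neither gene overlapped between the genotypes, as was so for 6 of the 28 modulators and 7.51% of all genes tested. Both were named for having the smallest p of the list. Without Lats1/2PanKO replicate 3, 3 modulators had an unadjusted p under 0.05 instead of 11. The share over all genes was then 5.89%, against 11.3% with every bud.

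The relay from receptor to ERK was nearly level. Of 23 genes, 2 had an unadjusted p under 0.05, 1 in each direction, and the median was -0.01. The share over all genes was 11.3%. *Gab1*, a docking protein of receptor complexes, was at 16.4 to 19.0 FPKM in WT and at 23.1, 19.4 and 25.6 FPKM in Lats1/2PanKO buds. *Sos2*, an activator of RAS, was at 14.8 to 17.1 and 12.4 to 13.4 FPKM. *Plcg1*, a phospholipase bound by FGF receptors, was at 42.6 to 53.2 and 34.7 to 42.3 FPKM. The groups did not overlap for any of the 3, and adjusted p values from limma were 0.238, 0.269 and 0.524. These 3 were named because they had the smallest p of the list. They were also the only genes of the 23 without overlap, which was found for 7.51% of all genes tested.

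Further ERK-responsive genes were mixed. Of 19 tested, 5 were higher and 1 lower with an unadjusted p under 0.05, the median being -0.04. *Errfi1*, an inhibitor of the EGF receptor, was at 8.63 to 10.9 FPKM in WT and at 15.8, 14.3 and 28.4 FPKM in Lats1/2PanKO buds (log2 fold change 0.90, standard error 0.19, limma, adjusted p = 0.154). *Mafk*, a small MAF factor, was at 2.62 to 3.66 and 4.42 to 10.1 FPKM. *Ccnd1*, cyclin D1, was at 41.6 to 56.7 and 63.0 to 101 FPKM. All 3 were highest in Lats1/2PanKO replicate 3 and did not overlap between genotypes. They were named for the smallest p of the list, in which 4 genes did not overlap, against 7.51% of all genes tested. *Etv4*, the partner of *Etv5*, named after its values were seen, was at 18.1 to 30.8 FPKM in WT and 17.8 to 21.4 FPKM in Lats1/2PanKO buds (log2 fold change -0.18, limma, adjusted p = 0.750). Without Lats1/2PanKO replicate 3, 3 of these genes (15.8%) had an unadjusted p under 0.05 instead of 6. The share over all genes was then 5.89%, against 11.3% with every bud.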

How the data were processed

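Total RNA of 8 single pancreas buds at E11.0 (5 WT and 3 Lats1/2PanKO) had been depleted of ribosomal RNA and sequenced as stranded paired-end libraries. Reads were trimmed with cutadapt 1.12 and aligned with TopHat2 2.1.0, as the submitters' processing notes list. The deposited values are FPKM per gene, which the authors computed with Cuffdiff 2.2.1. Cuffdiff's test works on reads and was not repeated. The methods state quantile normalization, but the deposited columns differ in distribution (upper quartiles of genes above 0 from 19.8 to 21.5 FPKM) and were used unchanged. The depth is given only through the steps of low values, read from genes under 0.3 FPKM and from single-exon genes of at least 1500 bases, so no counting interval is given.

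Genotype and replicate were taken from the sample titles, and columns were matched through the sample descriptions. FPKM are not counts, so log2(FPKM + 1) of the 13777 genes averaging 0.5 FPKM or more was fitted with limma 3.58.1 (R 4.3.3), its variance prior following the mean, with Benjamini-Hochberg adjustment and a threshold of 0.05. Single genes were also compared by an exact permutation test over the 56 ways of drawing 3 of 8 buds. The fit was tested on simulated data of 13777 genes in which 200 were changed: 139 were recovered at 2-fold and 193 at 4-fold. False calls numbered 4 and 13. The simulated noise was independent, with the same spread in both genotypes for each gene and no bud standing apart. These counts therefore check the fit and do not give its power in the real buds. Table starts were counted from 0 and are printed from 1. Pathway and marker lists are described by counts and medians. The 3 genes of each pathway list with the smallest p, and ligands averaging 0.5 FPKM or more, are named. The genes examined and the lists were chosen with earlier results of these data known. As alternatives, each bud was left out in turn, the filter was dropped or raised to 2 FPKM, the pseudocount was set to 0.1, columns were rescaled by quantiles or by median ratios, and the model was fitted without the trend, with array weights or blocked by replicate number. The list counts without Lats1/2PanKO replicate 3 were added after seeing the data. Promoters are RefSeq's, and figures were drawn with matplotlib 3.10.9.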

Additional observations from a re-analysis of the deposited data

Results flagged for a closer look

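The *Fgfr4* value of WT replicate 2, 4.87 FPKM, stood apart from the other 4 WT buds, which lay between 3.06 and 3.49 FPKM. Its gap to the nearest of them was 0.765 of the whole WT range, above Dixon's limit of 0.71 for 5 values, which chance passes in about 1 of 20 groups, and 10 genes were examined in this way. In the same bud *Fgfr3* (2.87 FPKM) and the summed liver markers (203 FPKM) were also the highest of the WT buds. Lats1/2PanKO replicate 2, at 3.64 FPKM, overlapped with the WT range of *Fgfr4* through this bud alone.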

How the results depend on the processing

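Over the 15 alternatives without pairing of the buds, *Fgfr2* had an unadjusted p under 0.05 in 15 (log2 fold change 0.44 to 0.71), *Spry2* in 14 (0.21 to 0.41) and *Fgfr4* in 12 (0.48 to 1.498). Their adjusted p ranged from 0.0843 to 0.692, from 0.266 to 0.843 and from 0.0802 to 0.941 (limma). *Fgfr4* was above 0.05 unadjusted without Lats1/2PanKO replicate 1 (0.0537) or 3 (0.0912) or WT replicate 3 (0.0505), and *Spry2* without Lats1/2PanKO replicate 2 (0.0651). In the other direction, *Fgf10* came under 0.05 without Lats1/2PanKO replicate 2 (0.0450), *Fgfr1* under array weights (0.0432) or without Lats1/2PanKO replicate 2 (0.00888), and *Fgfr3* (0.0385) and *Dusp6* (0.0460) without WT replicate 2. The number of members with an unadjusted p under 0.05 was 3, and 2 to 5 when single buds were left out, the 5 being without WT replicate 2. It was 1 (*Fgfr2*) with the replicate number as a block. Over all 13777 genes tested, 1553 had an unadjusted p under 0.05, and 812 to 2035 when single buds were left out. That count was 1459 without WT replicate 2, 1266 with the block and 2578 with array weights. The replicate numbers were not taken as a pairing: same-numbered buds deviated from their group means with r of 0.0855, -0.0969 and 0.0685 across genes. The WT bud with the highest r had the same number for Lats1/2PanKO replicates 1 and 3, and was WT replicate 4 for replicate 2. The number of tested genes with an adjusted p under 0.05 was 2, and was 18 with a pseudocount of 0.1, 1 without the trend, 174 with array weights, 1 with the replicate block, and 0 to 19 as each bud was left out. The sign turned for *Spry1* with array weights (0.0876) and without Lats1/2PanKO replicate 3 (0.13), for *Etv5* without WT replicate 3 (0.0266), and for *Spry4* without WT replicate 1 (0.0715), WT replicate 2 (0.0731) or Lats1/2PanKO replicate 3 (0.11). Leaving out single buds, the log2 fold change ran from -0.16 to 0.13 for *Spry1*, from -0.16 to 0.11 for *Spry4* and from -0.11 to 0.0266 for *Etv5*. The cause was not tested. The deposited FPKM carry no read counts, so what depth adds to the error of low genes such as *Fgfr3* was not separated.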

Other observations

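Other cell types the buds could hold were followed by their markers, and the lists differed in direction. All 14 endothelial markers tested had a lower mean in Lats1/2PanKO buds, 4 of them with an unadjusted p under 0.05 (median log2 fold change -0.40), and all 6 tested of mesothelium did, 3 of them with an unadjusted p under 0.05 (median -0.41). Of the pancreas progenitor markers, 13 of 15 had a higher mean, 6 of them with an unadjusted p under 0.05 (median 0.57), and of the liver markers all 11 tested did, 5 of them with an unadjusted p under 0.05 (median 0.59). All 11 red blood cell markers tested had a higher mean (median 0.49), with 0 at an unadjusted p under 0.05, and their summed FPKM ran from 2667 to 15879 in WT and from 8124 to 10275 in Lats1/2PanKO buds. Of 10 leukocyte markers, 0 had an unadjusted p under 0.05 (median 0.18), of 10 nerve and neural crest markers 2 did, both higher (median 0.31), and of 4 stomach and duodenum markers 1 did, lower in Lats1/2PanKO buds (median 0.07). Leaving out Lats1/2PanKO replicate 3, the counts at that threshold were 2 for endothelium, 1 for mesothelium, 5 for progenitors, 3 for liver, 0 for red blood cells, 1 for leukocytes, 1 for nerve and 1 for stomach and duodenum. In that setting 5.89% of all genes tested passed it, against 11.3% with every bud. The medians were then 0.22 for progenitors, 0.32 for liver, -0.25 for endothelium, -0.26 for mesothelium, 0.35 for leukocytes and 0.11 for nerve, and that of stomach and duodenum turned in sign, to -0.07.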
